A study of Gallus gallus with 14 samples.

Results

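CSF1R, CD74, LAPTM5, PTPRC and CTSS are 5 genes known best from macrophages and other leukocytes, and their signals were followed in the developing retinal pigment epithelium (RPE) of the chicken embryo. The RPE is the pigmented cell layer between the neural retina and the choroid, the vascular bed of the eye. All probe sets whose only gene symbol was one of these 5 names were taken, which gave 12 of the 38439 non-control probe sets on the array and 5 of the 13009 genes named on it. CSF1R had 4 of them, CD74 and PTPRC had 3 each, and LAPTM5 and CTSS had 1 each. A further probe set, which carried the symbols of CSF1R and FLT4 together, was left out. It lay between 4.33 and 6.61 in log2 signal.

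Total RNA from isolated RPE sheets was hybridised to 14 one-colour Affymetrix chicken arrays, namely 4 arrays of embryonic day 7 (E7), 3 of E10, 3 of E14 and 4 of E18. The preparations were independent, and each pooled the sheets of 20 to 30 eyes, so differences between embryos were averaged within each array. No treatment is named, and the strain and sex of the embryos are not given in the sources used here. The series addresses how gene expression in the RPE changes as the tissue matures.

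Macrophages depend on CSF1R, the receptor tyrosine kinase for the cytokines CSF1 and IL34. PTPRC (CD45) is a membrane tyrosine phosphatase of leukocytes, and LAPTM5 is a lysosomal membrane protein of blood-derived cells. Antigen-presenting cells load peptides onto MHC class II molecules with the help of CD74, the invariant chain, which CTSS (cathepsin S) trims inside lysosomes. RPE cells digest photoreceptor outer segments in lysosomes of their own, so a lysosomal gene is not by itself a marker of leukocytes.

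Values are log2 of the normalised signal plus 16, and changes are differences between age means on that scale with the standard error (SE) of a limma fit over all 14 arrays. A gene is said to rise or fall where the limma p adjusted over all 23063 tested probe sets was under 0.05. Probe sets with a mean under 6.2, the limit below which 40% of all probe sets lay, are called dim and were not tested. The median deposited signal of an array ran from 83.3 to 144.6, and the small number of arrays limits the precision. In bulk RNA, a change in the number of cells of one type and a change in RNA per cell cannot be told apart. RPE markers were bright throughout: 9 of 9 passed the limit, with a summed linear signal of 162000 to 171000 at E7 and 237000 to 242000 at E18.

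Some arrays of one age stood apart, namely E7 replicates 1 and 2 and E18 replicates 2 and 3. They were named without a set threshold. An instrument file was available for 9 arrays, namely all E10 and E14 arrays, E7 replicate 4 and E18 replicates 1 and 4. They are called the shared session below, by the presence of that file alone. The sample labels name no session, so this is a grouping by file and not a known batch. Fluidics station 1 served E7 replicate 4 and E10 replicate 1. These 2 arrays also had the highest median deposited signals, 144.6 and 135.8, against at most 107.5 on the others. E10 replicates 2 and 3 and E14 replicates 1 and 2 were on station 2. E14 replicate 3 and E18 replicates 1 and 4 were on station 3, so station ran with age. The 4 arrays that stood apart belong to the 5 without such a file. On them the 3' probe set of ACTB was least bright relative to the 5' one. Their ratios were 1.18 to 1.30, against 1.36 to 1.73 on the other arrays. This ratio varies with RNA quality, and a lower one means less 3' bias, so it does not mark these arrays as poorer. They were set aside with earlier results of these data known, so a value without them describes that choice of arrays and is no independent test. RNA of red blood cells also varied within an age. HBA1, an alpha globin, read 14.89, 9.84, 9.67 and 14.83 on E18 replicates 1 to 4. At E7 it read 11.95, 12.01, 8.90 and 7.59. The E10 arrays held 8.19 to 8.77 and the E14 arrays 13.06 to 13.14, so globin was low at E10, high at E14 and split at E18.

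The label of the gene set was first held against the data. PTPRC, the one pan-leukocyte surface marker among the 5, was dim through all 3 of its probe sets. Its brightest probe set read 5.73, 5.50, 4.21 and 5.67 at E7. It read 6.12, 6.01 and 6.45 at E10, 4.51, 5.04 and 5.75 at E14, and 5.57, 6.37, 5.47 and 5.70 at E18. Only 2 of the 14 arrays were above the limit, E10 replicate 3 and E18 replicate 2, and the ages overlapped. The other PTPRC probe sets were above it on 0 of 14 arrays, with deposited signals of 1.80 to 51.2 and 1.90 to 50.2. With the filter removed, no contrast of the brightest PTPRC probe set passed the limma test, and the lowest adjusted p was 0.284, for E10 against E7.

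Other genes that define leukocytes were dim in part. Of 9 pan-leukocyte markers 7 had a probe set and 2 passed the limit, LAPTM5 and the transcription factor IKZF1. LCP1, ITGB2, LCP2 and PTPN6 did not pass. Among 14 macrophage markers 11 had a probe set and 8 passed, namely CSF1R, C1QA, C1QB, C1QC, CX3CR1, IRF8, CYBB and TIMD4. SPI1, the master transcription factor of the lineage, was dim with means of 5.50 to 6.19, and so were MRC1 and LY86. Of 10 lymphocyte markers 9 had a probe set and 4 passed, and CD3E and CD4 were dim at every age. By comparison, 21.5% of all named genes were dim. The brightest CSF1R probe set thus stood far above the limit, where PTPRC and SPI1 did not. Signal also depends on the probe set, since the 4 of CSF1R had means from 8.19 to 12.57. It therefore does not rank RNA amounts between genes. The name "macrophage and leukocyte genes" describes where these 5 genes are best known, not a cell type identified here.

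**Figure D1:**
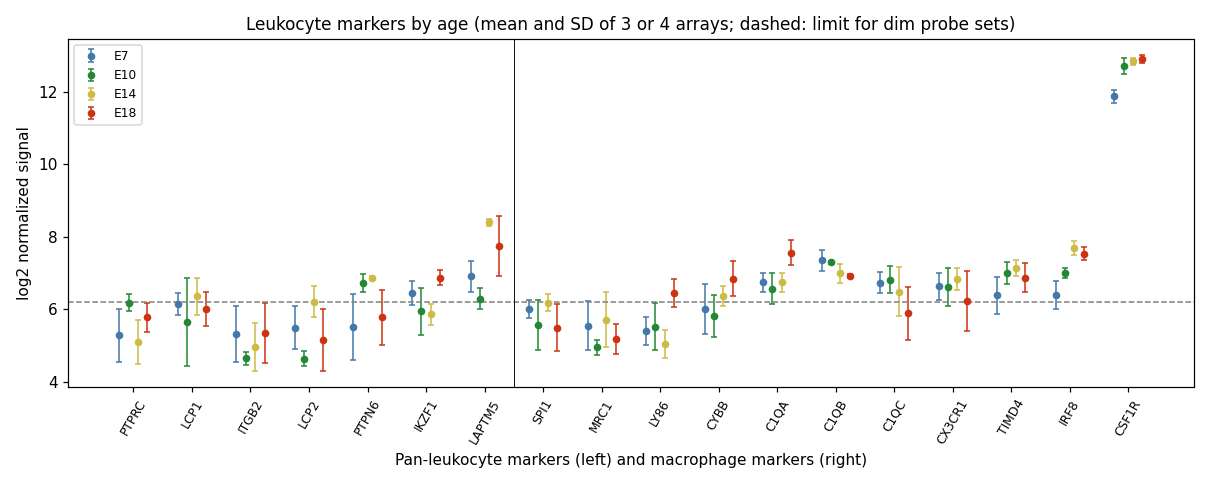
Log2 normalised signal of pan-leukocyte and macrophage markers at E7, E10, E14 and E18, with points at the mean and bars at the SD of the 3 or 4 arrays of an age and a dashed line at the limit of 6.2. CSF1R lies near 12 to 13 at all ages, while PTPRC, ITGB2, SPI1 and MRC1 lie at or below the line.

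CSF1R rose between E7 and E10, and its brightest probe set passed no test after that. Its brightest probe set read 11.69, 11.81, 12.09 and 11.93 at E7. At E10 it read 12.52, 12.96 and 12.72, and every E10 array lay above every E7 array. The E14 arrays held 12.85, 12.95 and 12.75, and the E18 arrays 13.04, 12.84, 12.82 and 12.98. On the linear scale the normalised signal ran from 3285 to 4349 at E7 and from 7234 to 8410 at E18, with no overlap.

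The rise of CSF1R between E7 and E10 was 0.85 ± 0.11 (SE), or 1.8-fold, with a limma adjusted p of 6.34e-05. Over the whole course, from E7 to E18, it was 1.04 ± 0.10, or 2.06-fold (adjusted p 3.63e-07). Neither later step passed the test. E14 lay 0.12 ± 0.11 above E10 (adjusted p 0.67) and E18 lay 0.07 ± 0.11 above E14 (adjusted p 0.713). In the order of levels of this probe set E7 was lowest, and no contrast among E10, E14 and E18 passed the test. On the deposited scale, though, E18 exceeded E10 by 0.35 (adjusted p 0.0373). Without the 4 arrays that stood apart the E18 to E7 difference was 1.00 (adjusted p 1.78e-05), and within the shared session it was 1.08 (adjusted p 8.14e-05).

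The 3 other CSF1R probe sets also rose from E7 to E10 and from E7 to E18, and the E18 arrays lay above the E7 arrays in each; of all tested probe sets 6.85% rose in the first of these contrasts and 18.4% in the other. Their changes from E7 to E18 were 0.73, 1.40 and 1.38 in order of falling brightness. After E10 the probe sets differed. The 2 of middle brightness were higher at E18 than at E10, by 0.31 ± 0.09 (adjusted p 0.0152) and 0.75 ± 0.15 (adjusted p 0.001), whereas the dimmest differed by -0.24 ± 0.35 (adjusted p 0.646). The probe set with a mean of 11.16 rose by 0.66 ± 0.15 from E14 to E18 (adjusted p 0.00478). In that probe set the E18 arrays read 11.59, 12.06, 12.20 and 11.60, so the highest values came from replicates 2 and 3, the arrays that stood apart. Replicates 2 and 3 were also the highest E18 arrays in the other probe set of middle brightness and in the dimmest one. The brightest probe set showed the opposite order at E18, and whether the probe sets read different transcripts was not tested.

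**Figure D2:**
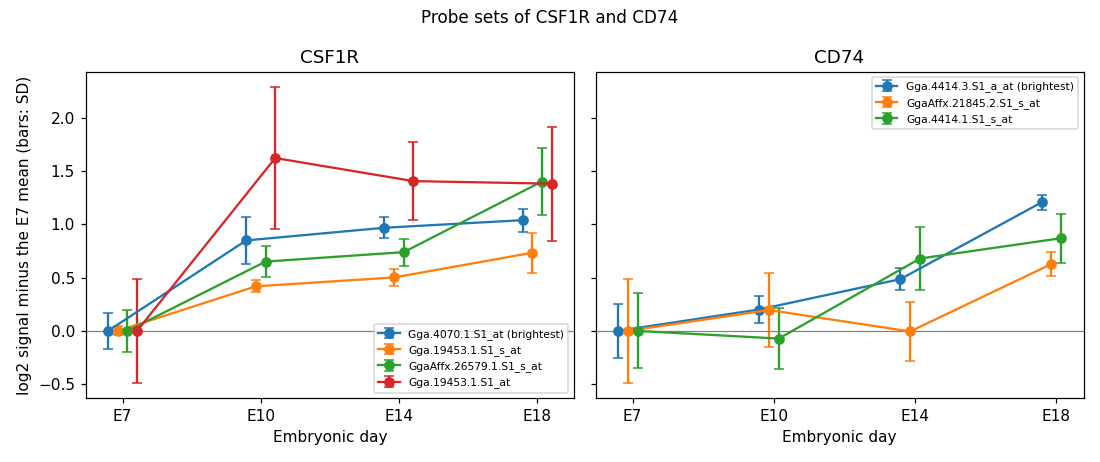
Mean log2 signal of each tested CSF1R and CD74 probe set relative to its own E7 mean, by embryonic day, with bars of 1 SD over the 3 or 4 arrays of that age. All 4 CSF1R probe sets step up at E10, while the brightest CD74 probe set climbs most between E14 and E18.

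CD74 rose late in its brightest probe set. That probe set read 7.97, 7.71, 7.91 and 8.31 at E7. It read 8.24, 8.03 and 8.25 at E10, inside the E7 range, and 8.47, 8.56 and 8.35 at E14. At E18 it read 9.17, 9.12, 9.15 and 9.28, and each of these 4 arrays was above all 10 younger arrays. Unlike LAPTM5 and CTSS below, CD74 was even across the E18 arrays, with an SD of 0.07.

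The step of CD74 from E14 to E18 was 0.72 ± 0.16, or 1.65-fold (limma, adjusted p 0.00339). From E7 to E18 the rise was 1.21 ± 0.14, or 2.31-fold (adjusted p 4.17e-06). The earlier steps did not pass, with 0.20 ± 0.16 from E7 to E10 (adjusted p 0.49) and 0.29 ± 0.17 from E10 to E14 (adjusted p 0.407). E14 exceeded E7 by 0.49 ± 0.16 (adjusted p 0.033), a call that was lost without the 4 arrays that stood apart, where the difference was 0.35 (adjusted p 0.159), and on the deposited scale, where it was 0.31 (adjusted p 0.22). The rise from E7 to E18 was 1.12 without those 4 arrays (adjusted p 0.000368) and 0.91 within the shared session (adjusted p 0.00376).

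The 2 other CD74 probe sets were higher at E18 than at E7 by 0.63 ± 0.23 (adjusted p 0.0366) and 0.87 ± 0.24 (adjusted p 0.0077). In the first of these, E7 replicate 4 read 8.64 and overlapped the E18 range of 8.48 to 8.73. Within the shared session, where that array was the only one at E7, its difference was -0.10, and without the 4 arrays that stood apart it was 0.25 (adjusted p 0.551). For this probe set the rise therefore rested on which E7 arrays entered. From E14 to E18 it differed by 0.63 ± 0.25 and did not pass (limma, adjusted p 0.0853). The dimmest CD74 probe set differed by only 0.19 ± 0.26 in that interval (adjusted p 0.673). Its largest step was earlier, from a mean of 6.73 at E10 to 7.48 at E14, and did not pass either (adjusted p 0.138). The late timing was thus read from the brightest probe set.

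LAPTM5 was lowest at E10 and highest at E14. It read 7.16, 6.28, 7.19 and 7.00 at E7 and 6.01, 6.60 and 6.30 at E10. At E14 it read 8.30, 8.46 and 8.44. The E18 arrays split, with 8.54 and 8.40 on replicates 1 and 4 and 6.89 and 7.22 on replicates 2 and 3. The E14 arrays lay above all E7 and E10 arrays. The E18 arrays overlapped those of E7 and E14 but lay above all E10 arrays.

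From E10 to E14 LAPTM5 rose by 2.10 ± 0.39, or 4.28-fold (limma, adjusted p 0.00399). E10 lay close to the limit for dim probe sets, where the constant of 16 added before the logarithm affects how large a change appears. LAPTM5 also rose from E7 to E14, by 1.49 ± 0.37 (adjusted p 0.00718), and E18 exceeded E10 by 1.46 ± 0.37 (adjusted p 0.00579). E18 against E7 did not pass, with 0.85 ± 0.34 (adjusted p 0.0556). With each array left out in turn that difference ran from 0.60 without E18 replicate 1 (adjusted p 0.181) to 1.14 without E18 replicate 2 (adjusted p 0.00996), and it was 1.03 without E18 replicate 3 (adjusted p 0.031). Without the 4 arrays that stood apart, which include both low E18 arrays, it was 1.37 (adjusted p 0.000986), a larger value that follows from which arrays were left out. In the order E10, E7, E18 and E14, no step between neighbours passed the test in the fit over all arrays. E10 differed from E7 by -0.60 ± 0.37 (adjusted p 0.352) and E18 from E14 by -0.64 ± 0.37 (adjusted p 0.258).

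Globin moved with LAPTM5. The E14 arrays and E18 replicates 1 and 4, which held the 5 highest LAPTM5 values, also held the 5 highest HBA1 values, from 13.06 to 14.89. E18 replicates 2 and 3 were low in both. At E7 the pattern was different, since replicates 1 and 2, with HBA1 near 12, read 7.16 and 6.28 in LAPTM5, and replicates 3 and 4, with HBA1 of 8.90 and 7.59, read 7.19 and 7.00. Of 6 erythrocyte markers 5 had a probe set and 4 passed the limit. Their summed linear signal was 933 to 7400 at E7, 731 to 1070 at E10, 12000 to 12700 at E14 and 1390 to 46700 at E18. The part of blood cells in the LAPTM5 values was not tested.

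CTSS passed no contrast. It read 8.57, 8.74, 9.41 and 9.64 at E7, 8.86, 8.78 and 8.96 at E10, and 9.53, 9.26 and 9.34 at E14. At E18 it read 10.12, 9.26, 8.92 and 9.85, with replicates 1 and 4 again above replicates 2 and 3. E7 and E18 overlapped, and their difference was 0.45 ± 0.25 (limma, adjusted p 0.18). E14 lay above E10 on every array by 0.51 ± 0.29, but this did not pass either (adjusted p 0.392), and the test over all ages gave an adjusted p of 0.184.

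The low CTSS values at E7 and E18 came from the arrays that stood apart, E7 replicates 1 and 2 and E18 replicates 2 and 3. Without them the difference was 0.46 for E18 against E7, -0.66 for E10 against E7 and 1.12 for E18 against E10. All 3 then had an adjusted p under 0.05, but leaving out the low CTSS arrays of an age raises its mean and lowers its spread by construction, so these values add no test of CTSS. Whether session, RNA quality or tissue content set these arrays apart was not tested.

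**Figure D3:**
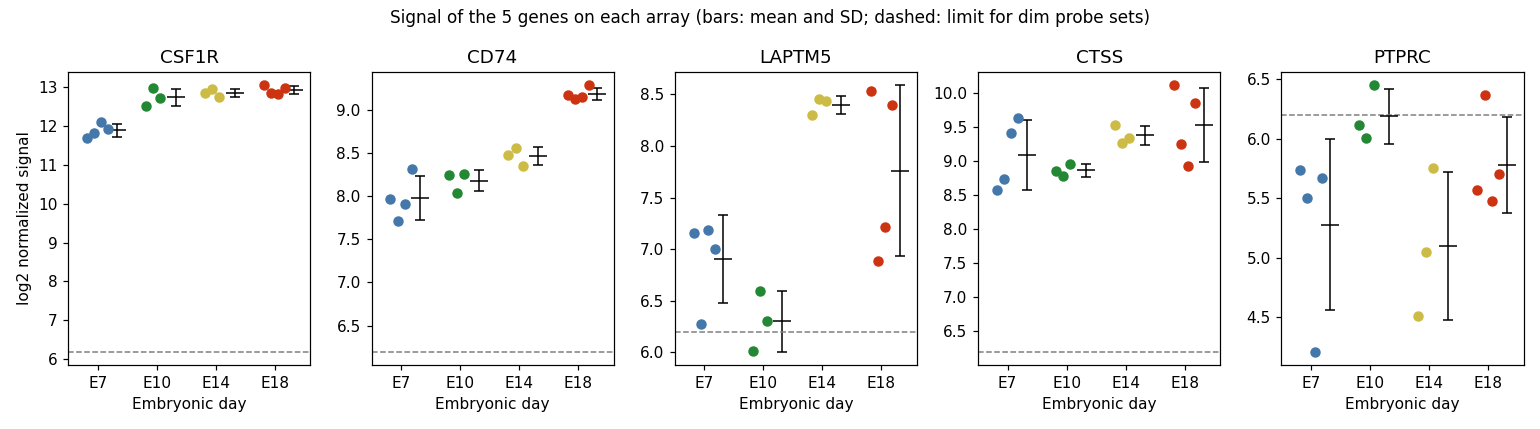
Log2 normalised signal of the brightest probe set of CSF1R, CD74, LAPTM5, CTSS and PTPRC on each of the 14 arrays by embryonic day; points are arrays in replicate order, bars give the mean and SD of an age, and the dashed line marks the limit of 6.2. CSF1R steps up at E10, CD74 is highest at E18, LAPTM5 and CTSS split within E18, and PTPRC stays around or under the limit.

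**Figure D4:**
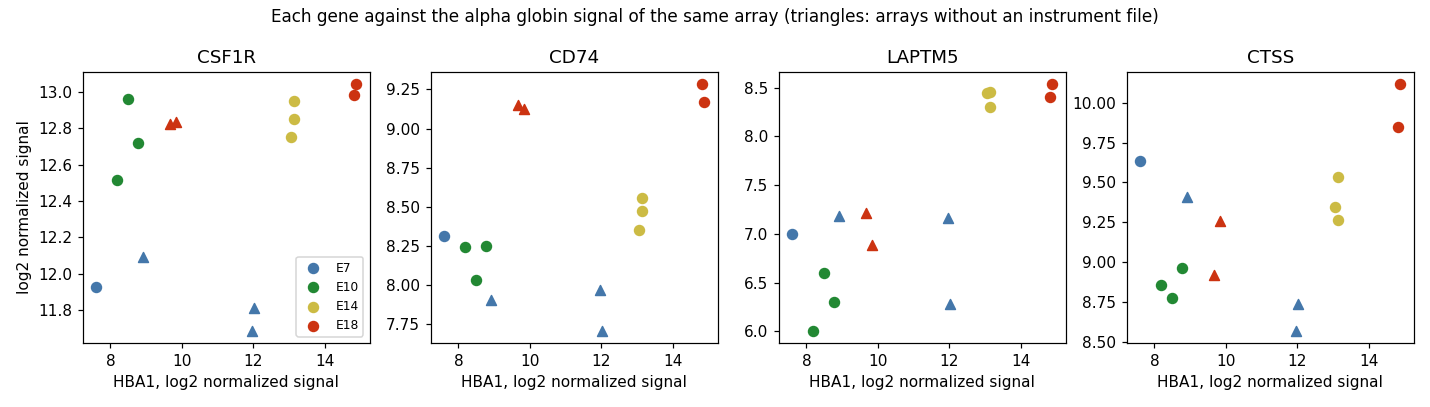
Log2 signal of CSF1R, CD74, LAPTM5 and CTSS against the log2 signal of HBA1 on the same array, coloured by age, with triangles for the 5 arrays without an instrument file. The 5 arrays with the highest HBA1 are the 5 with the highest LAPTM5, while CD74 is alike on E18 arrays of low and high HBA1.

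Counted over the set, 2 of the 4 tested genes (of 5) rose from E7 to E18, CSF1R and CD74, where 21.6% of all tested genes rose. One step at a time, only 1 gene rose in each interval and 0 fell in any. It was CSF1R from E7 to E10 (background 8.79%), LAPTM5 from E10 to E14 (background 4.7%) and CD74 from E14 to E18 (background 9.74%). From E7 to E14 3 of 4 rose, CSF1R, CD74 and LAPTM5 (background 15.5%), and 2 of 4 rose from E10 to E18, CD74 and LAPTM5 (background 17.7%). The moderated F test over all ages called 3 of 4, with a background of 50.9%. The median change of the 4 tested genes from E7 to E18 was 0.95, against -0.05 over all genes. These counts take each gene through its brightest probe set, and read that way a different gene passed the test in each interval. Other probe sets did not keep that separation. From E14 to E18 a further CSF1R probe set rose by 0.66 (limma, adjusted p 0.00478). The other CD74 probe sets did not pass there (adjusted p 0.0853 and 0.673). Whether the time courses of the genes differ from one another was not tested.

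No sequence is shown, and positions are given only as gene order in the RefSeq annotation of GRCg7b. There CSF1R and CD74 lie on the same chromosome with 6 protein-coding genes between them. The neighbours of CSF1R were not called from E7 to E18. PDGFRB, a related receptor kinase, differed by -0.04 ± 0.22 (limma, adjusted p 0.916) and HMGXB3 by -0.11 ± 0.23 (adjusted p 0.743). Beside CD74, the ribosomal protein gene RPS14 fell by 0.38 ± 0.04 (adjusted p 6.11e-07), though not after median centring, where its difference was -0.15 (adjusted p 0.577). TCOF1, on the other side of CD74, was not called, at -0.25 ± 0.14 (limma, adjusted p 0.167). CTSS lies next to CTSK, the bone-resorbing cathepsin K, which fell by 0.87 ± 0.25 from E7 to E18 (adjusted p 0.0114). That call was lost without the 4 arrays that stood apart, at -0.47 (adjusted p 0.104). SSR2, the other neighbour of CTSS, fell as well, at -1.03 ± 0.08 (adjusted p 3.42e-08). Beside LAPTM5, SDC3 fell, at -2.02 ± 0.32 (adjusted p 7.47e-05). MATN1, its other neighbour, and the neighbours of PTPRC were dim.

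Genes whose profile over the 14 arrays was most like that of a member were found by Pearson correlation of log2 signal. The values are a description over arrays that share ages. For CSF1R they were ARSK, a lysosomal sulfatase (r = 0.982), SAT1, an enzyme of polyamine breakdown (r = 0.972), and SLC2A9L (r = 0.97). SAT1 means were 13.66, 14.55, 14.57 and 14.72 from E7 to E18, the same early step. For CD74 they were FBXW7, which selects proteins for degradation (r = 0.976), LOC107049264 (r = 0.972) and SLC16A1, a lactate transporter (r = 0.971). LAPTM5 was closest to ATP6V1A, a subunit of the proton pump of lysosomes (r = 0.928), S100A10 (r = 0.927) and LOC421419 (r = 0.923). CTSS was closest to NDUFV1 of mitochondrial complex I (r = 0.94), SLC7A3, an amino acid transporter (r = 0.905), and MRPL2 (r = 0.894). None of these 12 genes is on the leukocyte marker lists. Those lists hold a small part of the 10206 tested genes, with 14 pan-leukocyte and 14 macrophage genes tested. For so few genes this absence is near what any 12 genes would give, and nothing about leukocytes is read from it.

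Wider lists around the 5 genes gave mixed directions from E7 to E18, a contrast in which 21.6% of all tested genes rose and 26.7% fell. Of 29 pan-leukocyte genes 22 had a probe set, 8 were dim, 2 rose and 3 fell, with a median of -0.04 against -0.05 for all genes. TRAF3IP3, an adaptor known from lymphocytes, rose by 4.12 ± 0.18 (limma, adjusted p 3.92e-11), from 7.34 to 8.10 on the E7 arrays to 11.56 to 12.13 on the E18 arrays. CYTIP, which binds cytohesins in haematopoietic cells, rose by 2.93 ± 0.19 (adjusted p 3.89e-09). Unlike LAPTM5, both were higher on E18 replicates 2 and 3 than on replicates 1 and 4. ARHGDIB, a gene abundantly expressed in blood cells, fell by 2.49 ± 0.23 (adjusted p 2.1e-07), with a difference of -1.88 without the 4 arrays that stood apart. CD44, the hyaluronan receptor, rose by 1.43 ± 0.19 to E10 and fell by 2.22 ± 0.19 after E14, a step of -1.51 when its probe sets were averaged.

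Of 42 macrophage genes 27 had a probe set and 14 were tested, of which 4 rose and 1 fell, with a median of 0.12. Besides CSF1R the risers were HMOX1, IRF8 and C1QA. IRF8, a transcription factor of myeloid development, rose by 1.14 ± 0.22 (limma, adjusted p 0.000641), with 5.89 to 6.75 at E7 and 7.35 to 7.79 at E18. C1QA, a chain of complement C1q, rose by 0.82 ± 0.26 (adjusted p 0.0196), a call lost without the 4 arrays that stood apart, at 0.60 (adjusted p 0.273), on the deposited scale, and without E7 replicate 1, E7 replicate 2, E18 replicate 2 or E18 replicate 4 alone (adjusted p 0.0502 to 0.0615). Its partner chains C1QB and C1QC did not pass, with -0.41 ± 0.21 (adjusted p 0.128) and -0.85 ± 0.39 (adjusted p 0.0943). CX3CR1, the fractalkine receptor of microglia, did not pass either, with -0.40 ± 0.39 (adjusted p 0.454). HMOX1, which breaks down heme and is induced in many cell types, rose by 3.17 ± 0.29 from E10 to E14 (adjusted p 6.8e-06). LAPTM5 rose in that interval too, and HBA1 went from 8.19 to 8.77 at E10 to 13.06 to 13.14 at E14. In the fit over all arrays 0 of 7 tested erythrocyte genes passed the test, where 4.7% of all tested genes rose. Without the 4 arrays that stood apart 4 erythrocyte genes rose, a count for which no share over all genes was computed. A link between these changes was not tested. For E18 against E7 the HMOX1 difference was 1.33 to 1.71 with each array left out in turn. It was 2.26 without the 4 arrays that stood apart and 0.79 among the arrays without an instrument file. LYN, a Src-family kinase, fell by 1.58 ± 0.09 (adjusted p 9.22e-10).

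Leaving CSF1R out, the summed linear signal of the 10 other macrophage markers with a probe set was 680 to 859 at E7, 637 to 835 at E10, 799 to 939 at E14 and 833 to 968 at E18. The corresponding sum of the 7 pan-leukocyte markers, LAPTM5 included, was 295 to 431, 259 to 392, 569 to 666 and 373 to 770. LAPTM5 alone went from 48.3 to 80.8 at E10 to 298.8 to 335.5 at E14. Much of the higher sum at E14 was thus LAPTM5 itself, and a sum without it was not computed. Lymphocyte markers summed to 327 to 745 at E7 and 577 to 819 at E18. Each of these sums overlapped between E7 and E18 at least in part. For the macrophage sum the overlap came from E7 replicate 4 alone, at 859, with 680 to 689 on the other E7 arrays. Other sums did not overlap. Of 4 thrombocyte markers 2 had a probe set and only 1, ITGB3, passed the limit, so their sum is largely that of 1 gene. It was 390 to 808 at E7 and 1100 to 1520 at E18. Of 4 heterophil markers 3 had a probe set and only 1, EXFABP, passed the limit. With EXFABP included they summed to 140 to 188 at E7 and 1950 to 3930 at E18. The part of leukocytes in the rises of CSF1R and CD74 was not tested. In the CSF1 pathway, 6 of 10 listed genes had a probe set and 4 of them were dim, CSF2RA, CSF3, CSF3R and KIT. The ligands CSF1 and IL34 were looked for, but no probe set carried either symbol alone, so they were not measured.

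Around CD74, 11 of 19 MHC class II pathway genes had a probe set and 9 were tested, of which 2 rose and 1 fell, with a median of 0.26. BLB1, a class II beta chain of the chicken, rose with CD74, by 1.07 ± 0.22 from E7 to E18 (limma, adjusted p 0.00106) and by 0.94 ± 0.24 from E14 to E18 (adjusted p 0.0115). Its E18 arrays read 8.41, 8.86, 8.97 and 8.32, all above the highest younger array at 7.98. The call from E14 to E18 was lost without the 4 arrays that stood apart, where the difference was 0.67 (adjusted p 0.109). CIITA, the transactivator of class II genes, was dim, with means of 4.91 to 6.28. NFYA, a subunit of the factor that binds class II promoters, fell by 1.14 ± 0.28 (adjusted p 0.00408), but within the shared session its difference was -0.44 (adjusted p 0.145).

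On the class I side, 8 of 12 genes were tested, of which 2 rose and 1 fell from E7 to E18, with a median of 0.24. B2M, the light chain of class I molecules on most nucleated cells, rose by 2.32 ± 0.18 (limma, adjusted p 2.99e-08), with a step of 1.29 ± 0.21 from E10 to E14 (adjusted p 0.00134). The earlier step, 0.76 ± 0.19, lost its call without the 4 arrays that stood apart, at 0.44 (adjusted p 0.113), and without E10 replicate 2 alone (adjusted p 0.083), E7 replicate 1 (adjusted p 0.0506) or E7 replicate 2 (adjusted p 0.0513). ERAP1, which trims peptides for class I, rose by 0.54 ± 0.11 (adjusted p 0.000664). CANX, a chaperone, fell by 0.26 ± 0.07 in the quantile-normalised values, but not under the other scalings, where its difference was 0.00 on the deposited scale and 0.22 after median centring.

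Around CTSS, 12 of 16 cathepsins, cystatins and related genes were tested, of which 6 rose and 4 fell from E7 to E18, with a median of 0.38. The 12 tested genes had means over all arrays of 9.23 (CTSS) to 14.98 (CST3). CTSD, a major aspartic protease of RPE lysosomes, rose by 0.61 ± 0.05 (limma, adjusted p 1.06e-07). CSTB, a cathepsin inhibitor, rose by 1.16 ± 0.07 (adjusted p 2e-09), and CST3, a secreted inhibitor, by 0.40 ± 0.04 (adjusted p 4.44e-07). CTSC fell by 1.05 ± 0.10 (adjusted p 3.86e-07) and CTSA by 0.72 ± 0.09 (adjusted p 4.79e-06), a call that CTSA lost after median centring. CTSS was one of 2 tested genes of this list that did not pass, the other being CTSZ.

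Lists of other blood cells held few measurable genes. Of 31 lymphocyte genes 21 had a probe set and 13 of these were dim. The T cell costimulator CD28 rose by 1.28 ± 0.32 (limma, adjusted p 0.00368), a call lost within the shared session, where the difference was 0.68 (adjusted p 0.166). LEF1, a Wnt transcription factor, fell by 0.96 ± 0.17 (adjusted p 0.000244). In the heterophil list, the avian counterpart of neutrophils, 3 of 7 genes with a probe set passed the limit, and all 3 rose. They were EXFABP by 4.32 ± 0.24 (adjusted p 6.3e-10), CEBPB by 3.49 ± 0.12 (adjusted p 2.04e-12) and CEBPA by 1.49 ± 0.19 (adjusted p 7.43e-06). EXFABP is a secreted lipocalin also made by cartilage, and the CEBP factors are found in many tissues. CSF3R, the receptor of heterophil growth factor, was dim at all ages, and the marker sum without EXFABP was 24.4 to 69.9 at E7 and 57.9 to 102 at E18. ITGB3, an integrin chain on the thrombocyte list, rose by 1.25 ± 0.26 (adjusted p 0.00106), a call lost without the 4 arrays that stood apart, where the difference was 0.81 (adjusted p 0.1).

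Chemokines, which guide leukocytes into tissues, moved both ways, with 1 of 7 tested higher and 1 lower at E18 than at E7. CCL17 fell by 2.45 ± 0.15 (limma, adjusted p 1.76e-09), with a mean of 10.30 at E7, 10.81 at E14 and 7.84 at E18. The step from E14 to E18 was -2.97 ± 0.16 (adjusted p 7.88e-09). CXCL14 rose by 2.09 ± 0.39 over the course (adjusted p 0.000414), a size that depended on the arrays and the pseudocount. It was 3.18 without the 4 arrays that stood apart and 3.75 within the shared session. E7 replicate 4, the only E7 array of that session, read 4.96, against 6.10 to 6.23 on the other E7 arrays. With a pseudocount of 64 the rise was 1.49 (adjusted p 0.000398). Among the arrays without an instrument file the difference was 1.05 and the call was lost (adjusted p 0.0613). CXCL14 had a step of 3.38 ± 0.45 from E10 to E14 (adjusted p 0.000299), from means at or below the limit for dim probe sets.

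**Figure D5:**
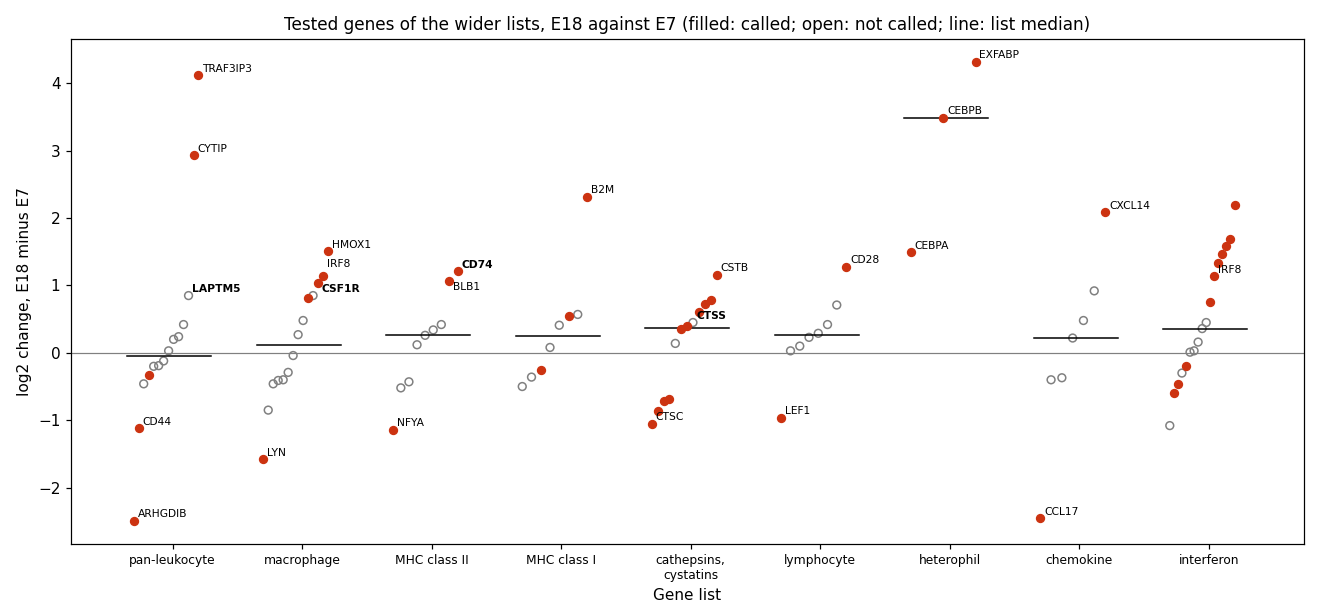
Log2 change from E7 to E18 for every tested gene of 9 lists, with filled points for genes past the limma threshold, open points for the rest and a line at the median of a list; CSF1R, CD74, LAPTM5 and CTSS are in bold. Most lists hold genes on both sides of 0, with TRAF3IP3, EXFABP and CEBPB highest and ARHGDIB and CCL17 lowest.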

How the data were processed

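RNA of 14 RPE preparations was measured on Affymetrix arrays, grouped by age as labelled. The deposited value table holds 1 linear intensity per probe set and array; its summarising software is not given in the sources used here. Leaving out the highest and lowest 2% of values, all arrays had a mean of 500.1, which shows a common scaling before deposit. The deposited instrument files (unit "other") hold scanner and fluidics settings and served only to mark the arrays that had one and their fluidics station.

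Log2(intensity + 16) was quantile normalised, 96 control probe sets were left out, and so were the 40% with the lowest mean (a linear signal of 57.5), which left 23063 probe sets. The supplied probe table named 17942 of them with 1 symbol, for 10206 genes; the probe set with the highest mean stood for a gene. All arrays were fitted together in limma 3.58.1 (R 4.3.3; lmFit, eBayes with a trend), with 2-sided contrasts and an F test, and Benjamini-Hochberg adjustment across the tested probe sets. No 2 arrays held identical values. The p-values cover the spread between pooled preparations.

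Members and lists were chosen with earlier results of these data known. List genes named had the smallest adjusted p per list or interval; C1QA and the defining markers were named outside that rule. Alternatives changed scaling, pseudocount (1 and 64), filter, variance model, blocks, threshold, probe set choice and arrays. On data simulated for E18 against E7 over 23063 probe sets, 51 of 67 4-fold, 34 of 67 2-fold and 18 of 66 1.5-fold changes were found, with 6 false calls. These were the only changes planted, in noise independent between probe sets and arrays. In the real arrays 9388 probe sets were called in this contrast, so the rates of the simulation do not carry over to them. Figures were drawn with matplotlib 3.10.9.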

Additional observations from a re-analysis of the deposited data

Results flagged for a closer look

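In groups of 4 arrays (E7 and E18), 4 of 114 groups examined held 1 array far from the other 3; chance gives about 1 in 20. PTPRC accounted for 3 of them, all at dim signal. One PTPRC probe set read 6.08 on E18 replicate 2 and 4.34 to 4.37 on the other E18 arrays. Another read 6.13 on E7 replicate 3 against 4.27 to 4.50 on the others. The brightest PTPRC probe set read 4.21 on that same array and 5.50 to 5.73 on the other E7 arrays, so the probe sets of the gene pointed in opposite directions there. CXCL14 read 4.96 on E7 replicate 4 and 6.10 to 6.23 on the other E7 arrays.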

How the results depend on the processing

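The count of members rising from E7 to E18, 2 as reported, was 4 with array weights, 4 without the 4 arrays that stood apart, and 2 to 4 when each array was left out in turn (3 without E18 replicate 2, 4 without E18 replicate 3). With each array left out, the total of probe sets called in this contrast ran from 8567 to 9349, against 9388 in the reported fit. No share over all genes was computed under the alternatives, so the member counts given here have no background beside them. The totals of called probe sets also moved with the setting, so a change in a member count is not read as particular to the members. For E10 against E7 the count of 1 became 2 within the shared session, 3 with the session as a block and 3 without those 4 arrays, as LAPTM5 or CTSS then fell. For E14 against E10 the count of 1 became 0 with 60% of probe sets left out, where LAPTM5 itself was not tested, and 2 with the compared ages alone, within the session or without the 4 arrays. For E18 against E14 it became 2 within the session and without the 4 arrays, through CTSS. For E14 against E7 it went from 3 to 1 with the session block, where LAPTM5 lost its call at 0.85 (adjusted p 0.127). For E18 against E10 it went from 2 to 1 with the stricter filter. CSF1R and CD74 kept their rise from E7 to E18, with a call, under every alternative run. One CD74 probe set turned to -0.0968 for E18 against E7 within the session. CANX turned to 0.00452 on the deposited scale and 0.219 after median centring for E18 against E7, to 0.122 after median centring for E18 against E10, and to 0.175 for E10 against E7 when probe sets of a gene were averaged, where NFYC turned to 0.063. IFNGR2 turned to 0.0177 after median centring and to 0.0845 with averaged probe sets for E18 against E7.

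Replicate numbers did not pair the arrays. Deviations of arrays with the same number correlated between -0.229 and 0.154 (2 of 19 pairs above 0.1), and with the replicate block the member counts were unchanged (2 for E18 against E7) and 9292 probe sets were called in place of 9388. The total called for E14 against E10, 1337, ranged from 665 at an adjusted p under 0.01 and 679 after median centring to 3736 with array weights; with each array left out the lowest was 761. The total for E10 against E7, 2866, ranged from 1045 to 4700, that for E18 against E14, 4501, went down to 2615, and that for E14 against E7, 5220, to 3243. Of the calls for E18 against E7, 45.2% were rises, against 35.2% on the deposited scale, where the median of all probe sets was -0.201, and 54.9% after median centring; for E14 against E10 the share was 57.1%, and 83.8% after median centring, where the median was 0.156. Fits without the session arrays were run for E18 against E7 only, since no E10 or E14 array lies outside it. In the session fit E7 had 1 array, assumed to vary like the other ages. Dim signal limits PTPRC and many leukocyte markers, for which neither presence nor absence was shown.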

Other observations

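Genes of the interferon response, which share regulation with antigen presentation, were not described above and are named here after their values were seen. Of 26 listed genes 21 had a probe set, 17 were tested, 7 rose and 3 fell from E7 to E18, with a median of 0.36 against -0.05 over all genes, of which 21.6% rose and 26.7% fell. The transcription factors IRF1 and IRF2 rose by 2.20 ± 0.44 (limma, adjusted p 0.000709) and 1.58 ± 0.18 (adjusted p 3.02e-06). IRF1 was higher by 0.97 without the 4 arrays that stood apart, and lost its call within the shared session, at 1.05 (adjusted p 0.0628). SOCS1, a feedback inhibitor of cytokine signalling, rose by 1.69 ± 0.19 (adjusted p 2.35e-06), with its largest step from E10 to E14, and TRIM25, a ubiquitin ligase of antiviral sensing, rose by 1.33 ± 0.13 (adjusted p 3.33e-07). The receptor chains IFNAR1 and IFNAR2 fell, by 0.59 ± 0.17 (adjusted p 0.0123) and 0.46 ± 0.08 (adjusted p 0.000171), where IFNAR1 lost its call without those 4 arrays (adjusted p 0.0668) and IFNAR2 after median centring (adjusted p 0.247). The call of the third gene to fall, IFNGR2, was lost under most alternatives. MX1, IRF4, IRF9 and IFIH1 were dim. Without the 4 arrays, 6 genes rose and 1 fell, counts for which no share over all genes was computed.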
